A study of Homo sapiens with 6 samples.

Results

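The granule protein genes MPO, AZU1, PRTN3, ELANE, CTSG, GZMB and LYZ were examined as 7 genes in 4 stretches of hg19 (called windows here), in all 4 peak lists of the series. Every listed peak that overlapped a window by at least 1 bp was a member. The windows were chr17:56.31-56.41 Mb for MPO (band 17q22), chr19:0.80-0.88 Mb for AZU1, PRTN3 and ELANE (19p13.3), chr14:25.00-25.13 Mb for CTSG and GZMB (14q12) and chr12:69.70-69.79 Mb for LYZ (12q15). They held 92 of the 145457 listed peaks. Of these, 5 came from the RUNX1 list of AI-10-49 and 0 from the RUNX1 list of DMSO, while 44 came from the H3K27ac list of AI-10-49 and 43 from that of DMSO.

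The cells were ME-1, an established human leukemia line with inv(16), in which the fusion protein CBFβ-SMMHC is made and binds the transcription factor RUNX1. They received AI-10-49 (1 µM), a small molecule that releases RUNX1 from the fusion protein, or its solvent DMSO, each for 6 h, and all libraries come from this 1 line. RUNX1-bound chromatin and chromatin with H3K27ac, a histone mark of active promoters and enhancers, were precipitated and sequenced. Each antibody and condition had 1 library, so no difference could be set against a replicate spread. No p-value is given, and the intervals (95%, exact) of levels and ratios cover counting error only. The intervals of shares treat regions as independent of each other. Many regions here are neighbours, so those intervals can be too narrow.

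Azurophil granules are the first granules that maturing neutrophils make, at the promyelocyte stage, and they carry enzymes that kill microbes after ingestion. MPO encodes myeloperoxidase, which makes hypochlorous acid. ELANE, PRTN3 and CTSG encode the serine proteases neutrophil elastase, proteinase 3 and cathepsin G. AZU1 encodes azurocidin, a relative of these proteases that lacks protease activity and is itself antimicrobial. LYZ encodes lysozyme, which cuts bacterial cell walls and is also made by monocytes. GZMB, a relative of CTSG close to it on the chromosome, encodes granzyme B, a protease of killer lymphocytes. RUNX1, C/EBP factors and PU.1 are known regulators of granule genes in myeloid progenitors.

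In the RefSeq gene table (GRCh38.p14), used only for the order of protein-coding genes, MPO lies between LPO and TSPOAP1. AZU1, PRTN3 and ELANE follow each other between PLPPR3 and CFD, and GZMH lies between CTSG and GZMB. LYZ lies between CPSF6 and YEATS4. No gene positions in hg19 were at hand, so peaks are placed in windows and not at promoters or exons.

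Promoters of 4 of the 7 genes matched by symbol in the RefSeq table. The 250 bases before each start are shown because these genes lie in windows with strong acetylation (AZU1, PRTN3) or almost none (CTSG, GZMB), all without a listed RUNX1 site. Their coordinates are of GRCh38.p14 and were not compared with the hg19 peaks. Capitals mark matches, on either strand, to the RUNX words TGTGGT and TGCGGT, the C/EBP word TTGCNNAA, the PU.1 word GAGGAAGT and the TATA word TATAAA.
AZU1 (chr19:827587-827836, plus strand): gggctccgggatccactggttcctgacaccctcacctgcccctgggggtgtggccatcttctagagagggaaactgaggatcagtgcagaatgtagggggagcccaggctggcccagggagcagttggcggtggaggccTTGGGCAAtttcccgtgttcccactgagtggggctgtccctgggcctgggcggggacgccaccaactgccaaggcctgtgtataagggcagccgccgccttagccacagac
PRTN3 (chr19:840749-840998, plus strand): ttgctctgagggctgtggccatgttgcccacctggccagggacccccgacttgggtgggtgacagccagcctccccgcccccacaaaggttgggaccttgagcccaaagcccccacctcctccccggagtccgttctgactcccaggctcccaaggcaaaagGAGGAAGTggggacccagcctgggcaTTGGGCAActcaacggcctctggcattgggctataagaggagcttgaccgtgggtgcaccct
CTSG (chr14:24576251-24576500, minus strand): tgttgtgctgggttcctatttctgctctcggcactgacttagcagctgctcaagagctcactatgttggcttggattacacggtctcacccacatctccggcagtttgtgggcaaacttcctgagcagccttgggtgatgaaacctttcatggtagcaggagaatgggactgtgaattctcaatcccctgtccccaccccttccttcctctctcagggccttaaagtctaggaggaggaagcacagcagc
GZMB (chr14:24634191-24634440, minus strand): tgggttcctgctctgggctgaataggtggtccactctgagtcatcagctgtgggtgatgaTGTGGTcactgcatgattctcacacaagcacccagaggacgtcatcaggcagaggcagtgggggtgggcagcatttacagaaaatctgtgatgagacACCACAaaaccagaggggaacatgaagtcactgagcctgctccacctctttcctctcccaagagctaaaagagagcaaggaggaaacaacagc

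GZMB was the promoter among these 4 with the RUNX word TGTGGT. It held the word once as written, beginning 190 bases before the start, and once as its reverse complement, beginning 93 bases before it. Among 35116 promoters of the table, 11.0% held this word in the same stretch. PRTN3 held the PU.1 word, present in 2.17% of promoters, and AZU1 and PRTN3 each held the C/EBP word, present in 9.05%. No matches overlapped, and none of the searched words occurred in the CTSG stretch. TGCGGT (5.84% of promoters) and TATAAA (10.7%) occurred in none of the 4. A match is a string of letters and no evidence of binding.

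RUNX1 was listed in the MPO window after AI-10-49 and in no other of the 4 windows. The 5 sites of the AI-10-49 list lay at the window's left end, within an acetylated domain near its middle and at its right end. The DMSO list had none of these, and its nearest site, chr17:56429572-56429722, began 19.6 kb beyond the right end. All 5 thus overlapped no DMSO site, which was also so for 85.1% of the 10319 AI-10-49 sites in the genome. The DMSO list as a whole was shorter, with 1701 sites. A count of 5 of 5 (47.8% to 100%) does not set the MPO window apart from that background.

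Summit fragments, the DNA fragments that covered the highest point of a peak, were recovered from the deposited values and divided by the reads of the library, counted in M (1000000 reads). Fold enrichment and −log10 q, a false discovery score on which larger means stronger, come from the authors' peak caller. Both depend on the background and depth of each list, so a difference in them between lists is given as a value only. The site with most fragments was chr17:56409892-56410199, which crosses the right end of the window. It had 44 fragments in AI-10-49, or 1.40 per M reads (1.01 to 1.87), a fold enrichment of 6.33 and a −log10 q of 16.9. Almost the same values were found at the left end, where chr17:56310295-56310561 had 43 fragments, or 1.36 per M reads (0.987 to 1.84), with a fold of 6.44 and a −log10 q of 16.7. The intervals of these sites overlap nearly completely.

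The site inside the domain near the middle, chr17:56359102-56359377, had 33 fragments in AI-10-49, or 1.05 per M reads (0.721 to 1.47), with a fold of 6.33 and a −log10 q of 12.5. The sites with the fewest fragments lay near the right end, close to the site with most fragments named above. At chr17:56406972-56407181 there were 27 fragments, or 0.857 per M reads (0.565 to 1.25), with a fold of 5.04 and a −log10 q of 7.97. At chr17:56408748-56408971 there were 29 fragments, or 0.920 per M reads (0.616 to 1.32), with a fold of 4.23 and a −log10 q of 6.85. All 5 intervals share values, so no order among the sites stands beyond counting error.

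For RUNX1 sites these were ordinary in height. The median over the whole AI-10-49 list was 1.05 fragments per M reads, and the 5 sites ranked between 4192 and 8222 by −log10 q among 10319. The DMSO list did hold sites of this height. Its lowest site had 0.326 fragments per M reads, and 41.4% of its sites lay at or below the lowest of the 5 (0.857) and 83.3% at or below the highest (1.40). RUNX1 fragments at the 5 positions in DMSO are not known, because unlisted positions carry no value. Over the 1551 DMSO sites found in both lists the median ratio of AI-10-49 over DMSO was 2.1 (quartiles 1.52 and 2.97). Fragments were 169 bp long in the RUNX1 library of AI-10-49 and 149 bp in that of DMSO.

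**Figure D1:**
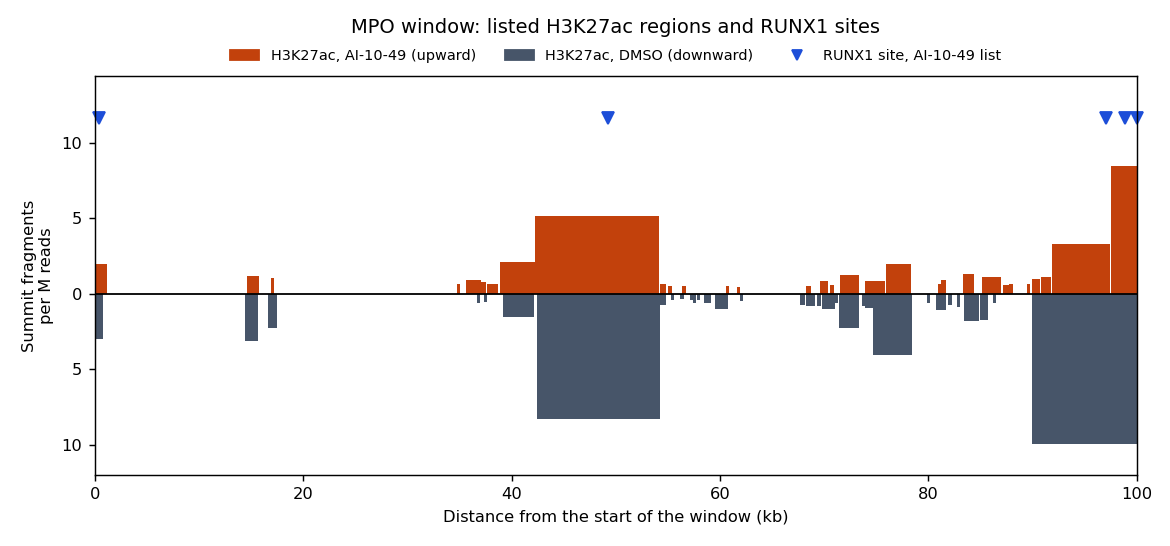
Listed peaks of the MPO window (x axis, kb from its start). Each bar spans an H3K27ac region cut at the window's ends, its height is the region's summit fragments per M reads (y axis), and AI-10-49 points up and DMSO down (the narrowest bars are drawn wider so as to be seen). Triangles mark the summits of the 5 RUNX1 sites of the AI-10-49 list. The domain near the middle reaches 5.14 in AI-10-49 and 8.29 in DMSO, and the domain at the right end has its summit outside the window.

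All 5 RUNX1 summits lay inside an H3K27ac region of AI-10-49 and inside one of DMSO. Of all AI-10-49 RUNX1 sites, 68.4% had the summit inside an AI-10-49 region and 76.2% inside a DMSO region, and 86.1% overlapped an AI-10-49 region at any base. With 5 sites the share is uncertain (47.8% to 100%), and this interval holds the shares of the whole list. The left site lay 373 bp from the H3K27ac summit of AI-10-49 and 243 bp from that of DMSO. In the domain near the middle the RUNX1 summit was off the peak of acetylation, 3238 bp from the H3K27ac summit of AI-10-49 and 2560 bp from that of DMSO. The site at chr17:56406972-56407181 was 335 bp from an H3K27ac summit of AI-10-49 and 8197 bp from that of DMSO. These are not matching summits, since the DMSO region is 18739 bp wide and AI-10-49 lists a separate piece of 5596 bp there. The highest summits of the whole stretch lay 9 bp apart between conditions. At chr17:56408748-56408971 the distances were 6436 bp in AI-10-49 and 6427 bp in DMSO. At chr17:56409892-56410199 they were 5217 bp in AI-10-49 and 5208 bp in DMSO. Read from the acetylated side, 4 of 44 AI-10-49 regions (9.09%, 2.53 to 21.7) overlapped an AI-10-49 RUNX1 site, against 13.7% of all regions. For DMSO regions the count was 3 of 43 (6.98%, 1.46 to 19.1), against 13.8%.

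No RUNX1 site was listed in the other granule gene windows, of which those on chromosomes 19 and 12 had strongly acetylated regions. The nearest AI-10-49 site was 2.60 kb from the window of AZU1, PRTN3 and ELANE, at chr19:796968-797396, and the nearest DMSO site was 60.8 kb away. For CTSG and GZMB these distances were 34.6 kb in AI-10-49 and 46.7 kb in DMSO, and for LYZ 66.6 kb and 941 kb. Among all AI-10-49 H3K27ac regions with at least as many summit fragments as the strongest one of the LYZ window, 63.7% of 1856 overlapped an AI-10-49 RUNX1 site. For the strongest region of the AZU1, PRTN3 and ELANE window, the share was 60.6% of 3111. Having a site was thus more common than lacking one among regions of at least this height. For the next regions of the chromosome 19 window the share was lower. It was 53.4% of 6513 for chr19:821016-825485 and 50.5% of 8123 for chr19:858641-861109. Each share includes all taller regions, and the width of regions was not taken into account.

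H3K27ac covered about the same length of the windows in both conditions, with 61.3 kb in AI-10-49 and 61.2 kb in DMSO, or 15.3% of 400 kb each. The ratio was 1.00, and over the whole lists it was 0.908. The MPO window was the most acetylated, with 45.2 kb (45.2% of its length, 31 regions) in AI-10-49 and 46.7 kb (46.7%, 33 regions) in DMSO. The window of AZU1, PRTN3 and ELANE had 13.4 kb (16.8%, 9 regions) in AI-10-49 and 12.4 kb (15.5%, 8 regions) in DMSO. In the LYZ window it was 2.46 kb (3 regions) in AI-10-49 and 2.14 kb (2 regions) in DMSO. The CTSG and GZMB window had 0.239 kb (1 region) in AI-10-49 and 0 regions in DMSO.

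The widest domain lying wholly inside the MPO window, near its middle, was of nearly equal extent in both conditions but lower at its summit after AI-10-49. It spanned chr17:56352277-56364139 in AI-10-49 (11863 bp) and chr17:56352467-56364204 in DMSO (11738 bp). By width it ranked 71 among 66350 regions in AI-10-49 and 82 among 67087 in DMSO, within the widest 0.107% and 0.122%. Its summit held 190 fragments in AI-10-49, or 5.14 per M reads (4.43 to 5.92), against 296 fragments, or 8.29 per M reads (7.38 to 9.29), in DMSO. The ratio was 0.619 (0.513 to 0.746), and the intervals do not meet. The authors' fold enrichment, relative to each list's own background, was 27.4 in AI-10-49 and 24.5 in DMSO and so was not lower in AI-10-49. The summits lay 678 bp apart.

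The domain at the right end of the MPO window reached beyond it in both conditions, and its summit lay outside. In DMSO its part in the window was a single region, chr17:56399917-56418655, of 18739 bp, which ranked 18 by width in its list. In AI-10-49, 4 regions overlapped that DMSO region. The main piece, chr17:56407561-56424614, was 17054 bp wide (rank 17), and chr17:56401872-56407467 was 5596 bp wide with 121 summit fragments, or 3.27 per M reads (2.71 to 3.91). The main piece ended further right than the DMSO region and itself overlapped 3 DMSO regions, so both lists had breaks in this domain. The highest summit held 314 fragments in AI-10-49, or 8.49 per M reads (7.58 to 9.48), against 355 fragments, or 9.95 per M reads (8.94 to 11.0), in DMSO. The ratio of 0.853 (0.731 to 0.996) lay just under 1. Merged over both lists, the stretch ran over chr17:56399914-56424614 and held 7 AI-10-49 RUNX1 sites. Of these, 6 overlapped the DMSO region and 3 overlapped the window.

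Between these domains the strongest region of DMSO was chr17:56384711-56388451, with 144 summit fragments, or 4.03 per M reads (3.40 to 4.75). In AI-10-49 the matching region, chr17:56385947-56388373, had 72 fragments, or 1.95 per M reads (1.52 to 2.45). The ratio was 0.482 (0.358 to 0.645). At the left end, the region that held the first RUNX1 site had 74 fragments in AI-10-49, or 2.00 per M reads (1.57 to 2.51), and 108 fragments, or 3.03 per M reads (2.48 to 3.65), in DMSO. Its ratio of 0.661 (0.485 to 0.897) was also below 1. Here, too, the AI-10-49 region (chr17:56309279-56311171) and the DMSO region (chr17:56308939-56310801) cross the window's end.

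**Figure D2:**
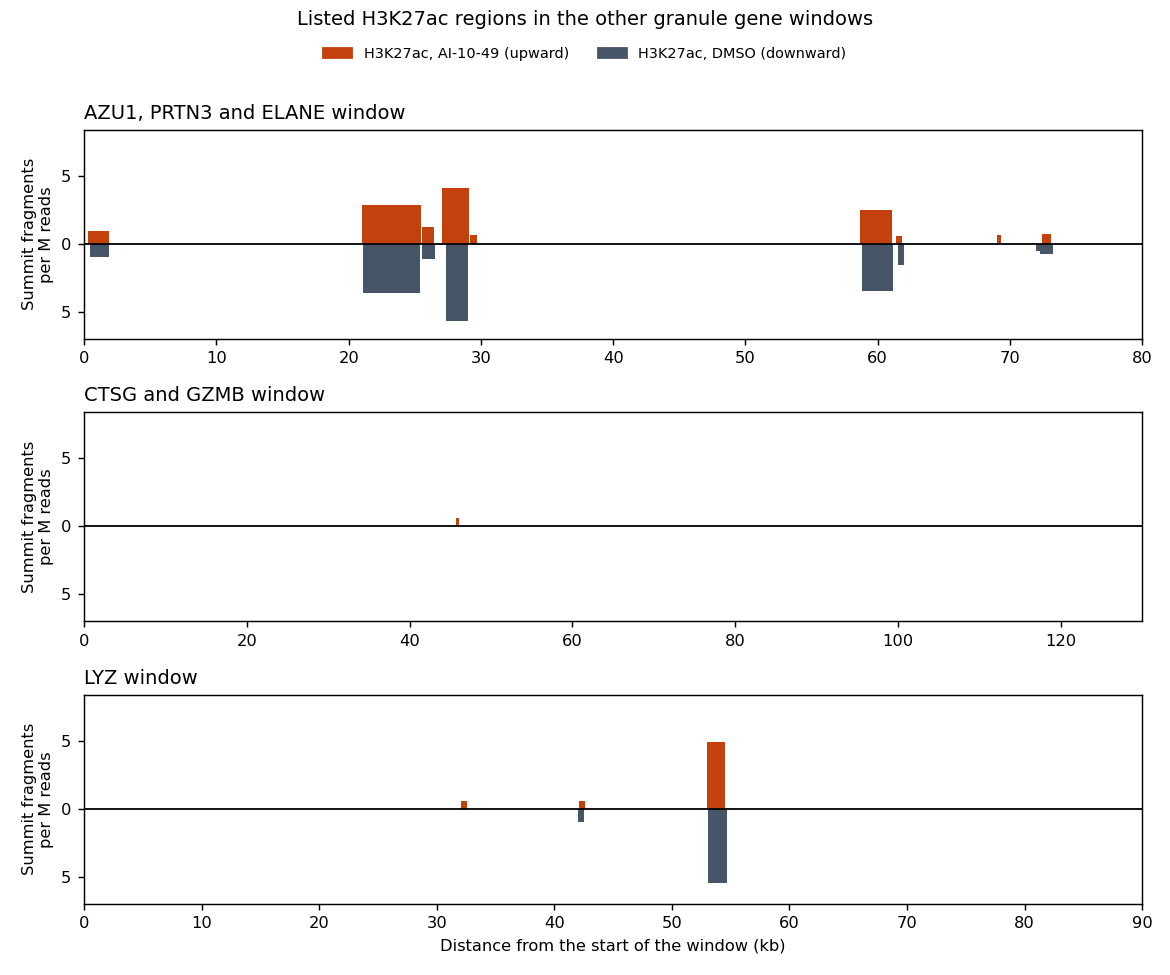
Listed H3K27ac regions in the windows of AZU1, PRTN3 and ELANE, of CTSG and GZMB, and of LYZ (x axis, kb from the start of each window). Bar heights are summit fragments per M reads (y axis), with AI-10-49 up and DMSO down, and the narrowest bars are drawn wider so as to be seen. The tallest bars reach 4.14 in AI-10-49 and 5.69 in DMSO in the first window and 4.95 in AI-10-49 and 5.44 in DMSO in the last, and the CTSG and GZMB window has 1 short bar in AI-10-49.

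In the serine protease cluster on chromosome 19, the strongest summit of acetylation had fewer fragments per M reads after AI-10-49. Of its AI-10-49 regions, 2 of 9 overlapped no DMSO region, against 21.0% of all AI-10-49 regions. Of its DMSO regions, 1 of 8 overlapped no AI-10-49 region, against 29.0% of all DMSO regions. Counts this small do not set the cluster apart from these shares. The region with most fragments was chr19:827041-829097 in AI-10-49 and chr19:827384-829034 in DMSO. Its summit held 153 fragments in AI-10-49, or 4.14 per M reads (3.51 to 4.85), against 203 fragments, or 5.69 per M reads (4.93 to 6.53), in DMSO. The ratio was 0.727 (0.586 to 0.902). The authors' fold enrichment was not lower in AI-10-49, with 23.0 in AI-10-49 and 21.0 in DMSO. The domain near the middle of the MPO window was alike in this, but at other strong regions the fold was lower in AI-10-49. At the right end of the MPO window it was 23.5 in AI-10-49 and 28.4 in DMSO. At the strongest region of the LYZ window it was 22.9 in AI-10-49 and 26.5 in DMSO.

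A wider region close by on its left, chr19:821016-825485 in AI-10-49 and chr19:821060-825379 in DMSO, had 107 fragments in AI-10-49, or 2.89 per M reads (2.37 to 3.50), and 129 fragments, or 3.61 per M reads (3.02 to 4.29), in DMSO. Its ratio of 0.800 (0.614 to 1.04) includes 1, and its fold enrichment was 11.5 in AI-10-49 and 20.6 in DMSO. The third, chr19:858641-861109 in AI-10-49 and chr19:858796-861184 in DMSO, had 93 fragments, or 2.51 per M reads (2.03 to 3.08), in AI-10-49 and 124 fragments, or 3.47 per M reads (2.89 to 4.14), in DMSO. For this region the ratio was 0.724 (0.547 to 0.955). Summits of the 3 regions lay within 86 bp of each other between conditions, so the same points were compared.

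The LYZ window held 1 strong acetylated region, which differed little between conditions. At chr12:69753023-69754498 in AI-10-49 and chr12:69753046-69754650 in DMSO, the summit had 183 fragments, or 4.95 per M reads (4.26 to 5.72), in AI-10-49 and 194 fragments, or 5.44 per M reads (4.70 to 6.26), in DMSO. The ratio was 0.910 (0.740 to 1.12). A weaker region, chr12:69742121-69742608 in AI-10-49 and chr12:69741994-69742530 in DMSO, had 21 fragments, or 0.568 per M reads (0.351 to 0.868), in AI-10-49 and 35 fragments, or 0.981 per M reads (0.683 to 1.36), in DMSO. Its ratio of 0.579 (0.320 to 1.02) includes 1.

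CTSG and GZMB had hardly any acetylation in this line. The sole listed peak of their 130 kb window was chr14:25045746-25045984 in AI-10-49, with 22 fragments, or 0.595 per M reads (0.373 to 0.901), a fold enrichment of 4.19 and a −log10 q of 5.43. The nearest DMSO region was 92.6 kb away. The value lay between the lower quartile (0.568) and the median (0.757) of all AI-10-49 regions, in fragments per M reads.

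Overlapping regions of the lists merged into 28 stretches that were present in both conditions, and 22 of these had fewer fragments per M reads at the AI-10-49 summit. The ratios ran between 0.368 and 1.53, with a median of 0.764. By window, 14 of 19 MPO stretches, 6 of 7 in the AZU1, PRTN3 and ELANE window and 2 of 2 in the LYZ window were lower in AI-10-49. No count of such stretches over the whole genome is given here, so these counts have no like share beside them. Counted as single regions, 64.4% of all 47607 DMSO regions in both lists had a ratio below 1.

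**Figure D3:**
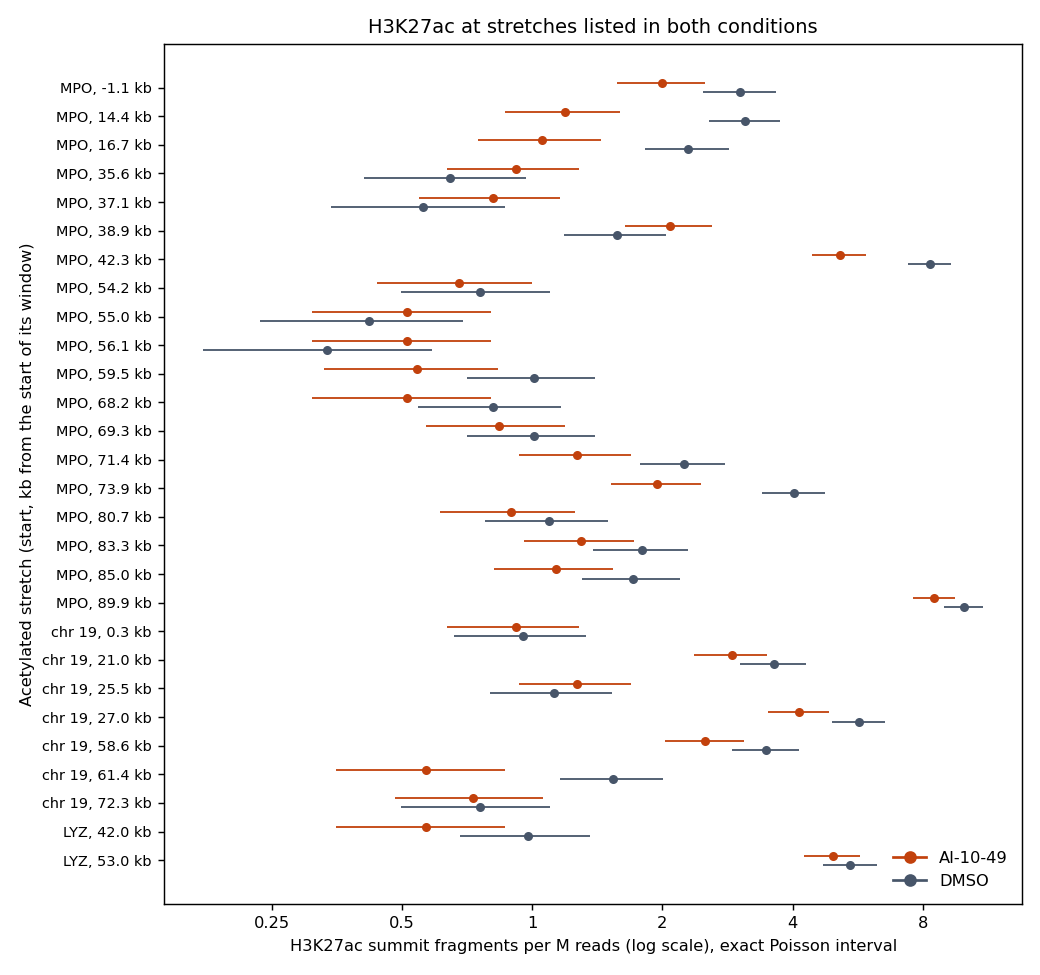
H3K27ac summit fragments per M reads (x axis, log scale) at the 28 stretches listed in both conditions, each row named by its window (chr 19 is that of AZU1, PRTN3 and ELANE) and its start in kb from the window's start. Points are the highest summit of the stretch in AI-10-49 (upper point of each row) and DMSO (lower point), and lines are exact Poisson intervals of 95%. In 22 rows the AI-10-49 point lies left of the DMSO point.

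Counted as regions and not as stretches, the ratios of the windows were close to those of the genome at large. Over the 31 DMSO regions of the windows with an overlapping AI-10-49 region, the median ratio was 0.816 (quartiles 0.626 and 0.998), and over all 47607 such regions it was 0.838 (0.634 and 1.16). Ratios at or below 1/1.5 were found for 11 of 31 (35.5%, 19.2 to 54.6), against 29.1% of all. Ratios of 1.5 or more were found for 2 of 31 (6.45%, 0.791 to 21.4), against 12.8%, and ratios below 1 for 23 of 31 (74.2%, 55.4 to 88.1), against 64.4%. The interval of the ratio lay wholly below 1 for 11 of 31 (35.5%, 19.2 to 54.6), against 33.0% of all. It lay wholly above 1 for 1 of 31 (3.23%, 0.0816 to 16.7), against 8.95%. That region, chr17:56396169-56396368 in DMSO, had a ratio of 1.84 (1.07 to 3.24), and its AI-10-49 partner also overlapped a stronger DMSO region, with which the ratio was 0.664 (0.437 to 1.00). Among regions with a mean of at least 3 fragments per M reads, a limit chosen after the values were seen, the median was 0.800 for 5 in the windows and 0.698 for all 9064. Just under this limit lay chr17:56384711-56388451 (4.03 in DMSO, 1.95 in AI-10-49, ratio 0.482) and chr19:858796-861184 (3.47 in DMSO, 2.51 in AI-10-49, ratio 0.724). Both ratios are below 0.800, so the median of the 5 depends on the limit. Fragments were 210 bp long in the AI-10-49 library and 192 bp in the DMSO library, and dividing by this length gave a median of 0.746 in the windows. The 31 DMSO regions were paired with 29 AI-10-49 regions, since a region can overlap several.

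**Figure D4:**
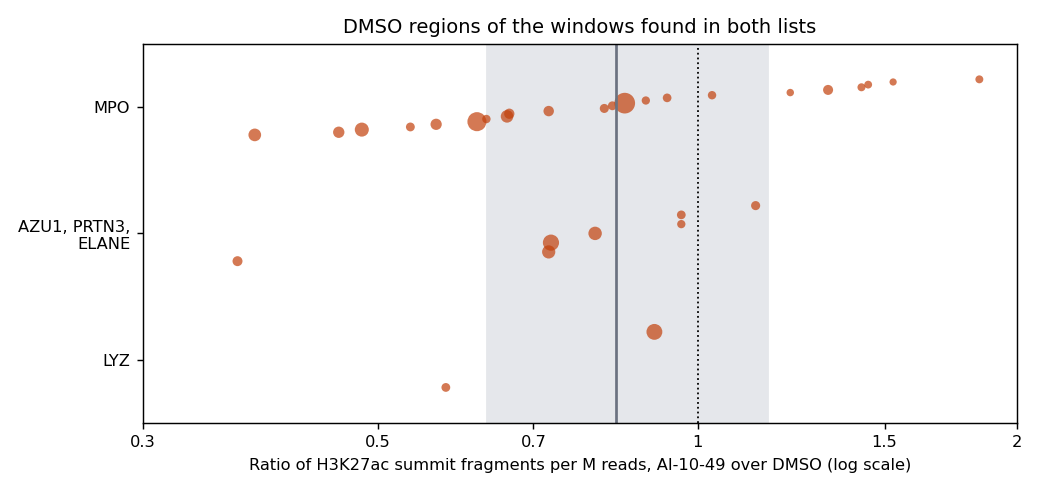
Ratio of H3K27ac summit fragments per M reads, AI-10-49 over DMSO (x axis, log scale), for the 31 DMSO regions of the windows that overlapped an AI-10-49 region, by window (y axis; the vertical spread within a row only separates points, and larger points had more fragments in DMSO). The grey band and line are the quartiles (0.634 and 1.16) and the median (0.838) of all 47607 such regions, and the dotted line marks 1.

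Regions listed in a single condition had few fragments in AI-10-49 and mostly few in DMSO. Of the AI-10-49 regions 10 of 44 (22.7%, 11.5 to 37.8) overlapped no DMSO region, against 21.0% of all AI-10-49 regions. Of the DMSO regions 12 of 43 (27.9%, 15.3 to 43.7) overlapped no AI-10-49 region, against 29.0%. The highest value was 0.676 fragments per M reads among the 10 of AI-10-49, where the median of the whole list was 0.757. Among the 12 of DMSO it was 0.897, above the median of 0.813 of the whole DMSO list.

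Among the AI-10-49-only regions, 5 reached a −log10 q of 5. The strongest by that score (7.72) lay in the LYZ window at chr12:69732056-69732554, with 22 fragments, 9.44 kb from a DMSO region. The CTSG and GZMB region was another. The other 3 were in the MPO window, at chr17:56347680-56348718 (24 fragments), chr17:56397768-56398090 (25 fragments) and chr17:56399445-56399734 (25 fragments). Their gaps to a DMSO region were 0.009, 1.40 and 0.182 kb.

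The DMSO-only regions that reached the same score of 5 numbered 6, all in the MPO window. That with the highest score (10.2), chr17:56377676-56378135, had 26 fragments and lay 0.146 kb from an AI-10-49 region. At chr17:56367424-56367719 there were 21 fragments, with a score of 9.78 and a gap of 0.761 kb. Next by score (8.73) was chr17:56392778-56393068, with 32 fragments and a gap of 0.275 kb. The remaining 3, at chr17:56371895-56372208, chr17:56367765-56367996 and chr17:56391905-56392279, had 17, 15 and 26 fragments and gaps of 0.029, 1.10 and 0.190 kb.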

How the data were processed

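The 4 peak lists were called per sample on hg19, and the submitters' processing notes name Bowtie2 2.1.0, SAMtools 1.3, Picard 1.96 and MACS2 2.1.0. The pairing of inputs with ChIP libraries in these calls is not stated in the sources. Each deposited peak carries a ratio (fold enrichment at its summit), a −log10 p and a −log10 q from the authors' peak caller. The deposited score was not used.

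Summit fragments were solved from fold enrichment and −log10 p, for the scaling factor at which they came out whole. All peaks (100%) were solved to within 0.003 of the −log10 p. ChIP reads were estimated from the lowest background with a genome of 2700000000 bp (assumed) and the shortest peak as fragment length. They came to 31.5 M (RUNX1, AI-10-49), 33.8 M (RUNX1, DMSO), 37.0 M (H3K27ac, AI-10-49) and 35.7 M (H3K27ac, DMSO). From the scaling factors, the control had 27.6 M reads for both AI-10-49 lists and 34.0 M for the H3K27ac list of DMSO. The RUNX1 list of DMSO gave no such value. These controls were taken to be the AI-10-49 and DMSO inputs, which the sources do not state. The 2 input libraries were not analysed here. The scripts were tested on simulated data.

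A DMSO region was paired with the overlapping AI-10-49 region of most fragments. Intervals are exact Poisson (levels), Clopper-Pearson (shares) and exact conditional binomial (ratios). No test was made. The text names all RUNX1 sites, H3K27ac regions that overlap them, the 3 regions with most fragments per window and list, and regions of 1 list with −log10 q of at least 5. The windows and lists were chosen with earlier results of these data known. Positions are 1-based. Python 3.11.15, numpy 2.4.6, pandas 2.3.3, scipy 1.17.1 and matplotlib 3.10.9 were used, and bands came from circlize 0.4.16.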

Additional observations from a re-analysis of the deposited data

How the results depend on the processing

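Of 34 alternative values 27 stayed close to the main one (within 1.5 times, or for a share within its own interval) and 7 moved. The RUNX1 sites of AI-10-49 (5) were 3 with a −log10 q of at least 10 and 14 with windows widened by 50 kb, and DMSO then had 0 and 2. With at least 50% of both intervals required, the shared H3K27ac regions were 43.2% in AI-10-49 and 44.2% in DMSO (main values 77.3% and 72.1%), and within 1 kb they were 88.6% and 95.3%. The share of RUNX1 sites in H3K27ac regions (100%) was 0% with at least 50% of both intervals, since the sites are much narrower than the regions. The median H3K27ac ratio (0.816) lay between 0.746 (corrected for fragment length) and 0.984 (the authors' fold enrichment, for which all regions gave 0.933). Of the H3K27ac regions, those with a −log10 q of 10 or more numbered 18 in AI-10-49 and 23 in DMSO. No ratio of RUNX1 peak numbers or of RUNX1 fragments could be had, since DMSO had 0 sites in the windows. No paired analysis was possible because there was a single library of each antibody per condition. The control of the AI-10-49 lists, taken to be the AI-10-49 input, had the lowest estimated total (27.6 M reads). Its part in which regions were listed was not tested.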

Other observations

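The following regions and stretches were chosen after their values were seen. Beside the wide domain of the MPO window, the length of listed acetylation was higher in AI-10-49 on the left flank and lower on the right flank. In the 10 kb on its left, chr17:56342277-56352276, H3K27ac covered 6.62 kb in AI-10-49 (5 regions) and 3.51 kb in DMSO (3 regions). In the 10 kb on its right, chr17:56364205-56374204, it covered 1.92 kb in AI-10-49 (5 regions) and 4.32 kb in DMSO (9 regions). On the left, the 3 stretches listed in both conditions had ratios of 1.43 (0.816 to 2.54), 1.45 (0.795 to 2.69) and 1.33 (0.928 to 1.91), AI-10-49 over DMSO, all with 1 in the interval, while the domain itself had 0.619. On the right, the 4 such stretches had ratios of 0.893 (0.497 to 1.60), 1.22 (0.589 to 2.58), 1.53 (0.704 to 3.45) and 0.536 (0.294 to 0.951), so the levels of shared stretches did not follow the covered length there.

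The lowest ratios of the windows were not at the regions with most summit fragments. By summit fragments in DMSO, the 3 regions below ranked within the top 29.3%, 15.8% and 21.4% of the DMSO list, in the order given. Of all DMSO regions in both lists, 2.04%, 2.52% and 6.67% had a ratio as low or lower, in the same order. The 3 are the lowest of the 31 ratios in the windows. At chr19:861398-861874 in AI-10-49 and chr19:861532-862004 in DMSO, in the AZU1, PRTN3 and ELANE window, the summit had 0.568 fragments per M reads (0.351 to 0.868) in AI-10-49 and 1.54 (1.16 to 2.01) in DMSO, a ratio of 0.368 (0.212 to 0.619). In the MPO window, chr17:56324668-56325752 in AI-10-49 and chr17:56324438-56325722 in DMSO had 1.19 (0.864 to 1.60) and 3.11 (2.56 to 3.75), a ratio of 0.382 (0.263 to 0.547). Its neighbour, chr17:56326933-56327167 in AI-10-49 and chr17:56326670-56327518 in DMSO, had 1.05 (0.750 to 1.44) and 2.30 (1.83 to 2.85), a ratio of 0.459 (0.305 to 0.680). It was 235 bp wide in AI-10-49 and 849 bp in DMSO. No RUNX1 site was listed in any of these 3 regions. In the genome at large, sites of the AI-10-49 list fell on 13.8% of the acetylated regions of DMSO. Lacking a site was thus usual and does not set the 3 regions apart. Regions of all heights are counted in this share.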
